A study of Mus musculus with 24 samples.

Results

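The genotype difference described here is that of FoxO6 mutant mice against wild type (WT), taken over 2 behavioural states, for the genes that do not lie on mouse chromosome 4, where Foxo6 itself sits. The protein belongs to the FoxO group of forkhead transcription factors. Of 19938 genes with a probe of their own, 18758 lie outside chromosome 4, 1161 lie on it and 19 have no chromosome in the annotation used and were left out. Each gene was read from 1 probe (transcript cluster), the one with the highest mean, on whole-transcript Affymetrix arrays of hippocampal RNA from male mice aged 8 to 9 weeks. The mice carried a mixed C57BL/6J-129sv background, and the mutants are labelled as homozygous null. There were 6 arrays in each of 4 groups: WT basal and mutant basal, from mice housed singly for at least 3 days, and WT learning and mutant learning, from mice taken 60 min after exploring a pair of identical objects for 10 min. The learning mice had been handled daily and had met the empty arena for 10 min 24 h before. So the states differ in their recorded handling and housing as well as in the task. No time of single housing is recorded for the learning mice. Nothing in the labels ties each array to its own animal, although they speak of biological replicates; p-values therefore reflect the spread among these samples, which may be partly technical. It is also not said how the null allele was made or whether WT and mutant mice were littermates.

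FoxO proteins bind DNA through their forkhead domain, and insulin and growth factor signalling controls where in the cell they act. FoxO6 is the member found mainly in the brain, with strong expression in the hippocampus, a structure needed for forming memories of objects and places. On a mixed background, sequence near a targeted gene is inherited together with it, which is why genes on the Foxo6 chromosome are treated apart. Leaving them out does not remove strain differences on other chromosomes. Those cannot be told apart from the mutation here, since it is not said whether the mice were littermates. Levels below are log2 values, and a difference is mutant minus WT on that scale, averaged over the states unless a state is named.

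The mutation showed in every array. Foxo6 lay between 5.98 and 6.59 in the 12 mutant arrays and between 6.62 and 7.30 in the 12 WT arrays, so the genotypes did not overlap. Its difference was −0.68 (95% interval −0.81 to −0.55, adjusted p = 1.19e-07). Pairs of arrays of 1 group correlated at 0.984 to 0.995 across probes. The other FoxO genes lie outside chromosome 4 and were not called: the difference was 0.02 for Foxo1 (95% interval −0.06 to 0.10), −0.02 for Foxo3 (−0.12 to 0.09) and −0.02 for Foxo4 (−0.11 to 0.07).

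Outside chromosome 4, 43 genes differed between mutant and WT, 24 lower and 19 higher in the mutant. Gastrin-releasing peptide, the receptor Fibcd1 and the thyroid hormone binding protein Crym were among the lower genes, and the integrin Itga4, the adhesion molecule Alcam and the serotonin receptor Htr2a among the higher. Here "called" means a limma p-value, adjusted over all 19938 genes, that is below 0.05. The 43 genes are 0.229% of the 18758 genes outside chromosome 4 (0.128% lower, 0.101% higher). At an unadjusted p under 0.05 the share was 8.39%. On chromosome 4, 35 of 1161 genes were called, or 3.01%, with 16.4% at an unadjusted p under 0.05. That count was 18 with each array shifted to a common median, 16 with choroid plexus markers and 9 with dentate markers as a covariate, and 12 without 3 WT basal arrays of low Ttr, settings under which the count outside chromosome 4 was 26, 28, 11 and 27. Differences outside chromosome 4 were small: sizes ran from 0.13 to 0.54 with a median of 0.23, and 16 of the 43 were larger than 0.25. The median difference of all genes outside chromosome 4 was 0.0064.

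The called genes outside chromosome 4 were scattered. They lay on 16 chromosomes, with at most 5 on any of them, and chromosomes 5, 13 and 17 held 0 of the called genes. The highest share outside chromosome 4 was 0.57%, on chromosome 14 (4 of 702 genes). Within 10 measured genes on either side of a called gene, another called gene was found for 1 pair, Rasl10a and Ewsr1 on chromosome 11, both lower in the mutant. The probes themselves were also placed: of the 20 probes with neighbouring identifiers, most belonged to genes of the same chromosome for 42 of the 43, and those of the exception, Pdlim1, lay on chromosome 5 and not on 19, where the gene is. A second probe of Pdlim1 with neighbours on chromosome 19 gave a difference of 0.19 (unadjusted p = 0.00506), against 0.21 for the first. Pdlim1 was not called from that second probe or from the mean of both.

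**Figure D1:**
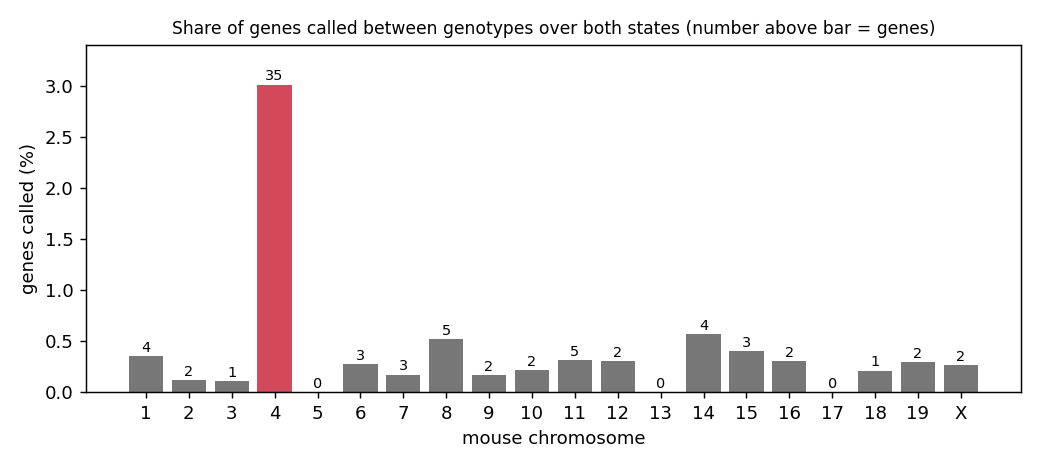
Share of genes called between genotypes over both states, in percent of the genes measured on each mouse chromosome, with the number of called genes above each bar. Chromosome 4, in red, stands at 3.01%, and no other chromosome is above 0.57%.

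In 5 of the called genes the arrays of the genotypes did not overlap in either state: Grp, Fibcd1, Crym and Klhl2, which were lower in the mutant, and Alcam, which was higher. Such a separation in the same direction was seen in 0.0267% of the genes outside chromosome 4, and in 4 of the 1161 genes on it (0.345%). The same 5 genes are those called both at basal and after learning in the main fit, which holds the arrays of both states. With only the learning arrays in the fit, 3 genes were called, all lower in the mutant, so Alcam was not among them. With only the basal arrays in the fit, 3 lower genes were called, so not all of Grp, Fibcd1, Crym and Klhl2 were.

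Grp encodes gastrin-releasing peptide, a neuropeptide that acts through a receptor on neurons. At basal it ranged from 8.25 to 8.61 in WT (median 8.43) and from 7.74 to 8.03 in the mutant (median 7.90). After learning it ranged from 9.11 to 9.44 in WT (median 9.23) and from 8.50 to 8.91 in the mutant (median 8.66). Every mutant array was below every WT array of its state. The difference was −0.54 (SE 0.0475, 0.69-fold, adjusted p = 3.95e-08), the largest in size among the called genes outside chromosome 4, at −0.53 at basal and −0.55 after learning. The gene of its receptor, Grpr, differed by −0.03 (95% interval −0.17 to 0.10). Grp also rose after the task, by 0.84 in WT and 0.82 in the mutant, a comparison that shares its arrays with the genotype comparison.

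Fibcd1 encodes a membrane receptor for acetylated molecules and is a marker of CA1 pyramidal cells. At basal its values were 8.90 to 9.23 in WT (median 9.08) and 8.61 to 8.86 in the mutant (median 8.71), and after learning 8.48 to 8.73 (median 8.53) and 8.07 to 8.31 (median 8.22). The groups did not overlap in either state. The difference was −0.34 (SE 0.0394, 0.788-fold, adjusted p = 5.86e-06). In both genotypes the level was also lower after the task, by −0.51 in WT and −0.52 in the mutant.

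Crym encodes mu-crystallin, which binds thyroid hormone in the cytoplasm. It measured 9.88 to 10.26 in WT (median 10.16) and 9.62 to 9.86 in the mutant (median 9.79) at basal. After learning it measured 10.36 to 10.44 (median 10.39) and 10.00 to 10.26 (median 10.12). The ranges came close at basal but did not cross in either state. The difference was −0.31 (SE 0.0365, 0.804-fold, adjusted p = 5.86e-06).

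Klhl2, an adaptor of a cullin ubiquitin ligase, differed less but with a small spread. Its values were 10.88 to 11.07 in WT (median 10.99) and 10.67 to 10.85 in the mutant (median 10.81) at basal, and 10.83 to 11.01 (median 10.91) and 10.66 to 10.79 (median 10.74) after learning. The mutant arrays were the lower ones in each state. The difference was −0.19 (SE 0.0268, 0.874-fold, adjusted p = 0.000115). Klhl2 was named after its values were seen.

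Alcam, an adhesion molecule of the immunoglobulin family, was the higher gene with the clearest separation. At basal it ranged from 9.82 to 9.97 in WT (median 9.89) and from 10.02 to 10.14 in the mutant (median 10.12). After learning the ranges were 9.94 to 10.05 (median 10.01) and 10.07 to 10.26 (median 10.19). Every mutant array was above every WT array of its state. The difference was 0.19 (SE 0.0255, 1.14-fold, adjusted p = 6.5e-05).

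Itga4, an integrin alpha subunit, had the largest increase among the called protein-coding genes outside chromosome 4. Its mutant arrays, at 8.20 to 8.40 (median 8.29), lay above the WT arrays, at 7.72 to 8.10 (median 7.94), at basal. After learning the ranges overlapped, at 8.20 to 8.56 (median 8.41) and 7.87 to 8.36 (median 8.11). The difference was 0.33 (SE 0.0519, 1.26-fold, adjusted p = 0.000818).

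**Figure D2:**
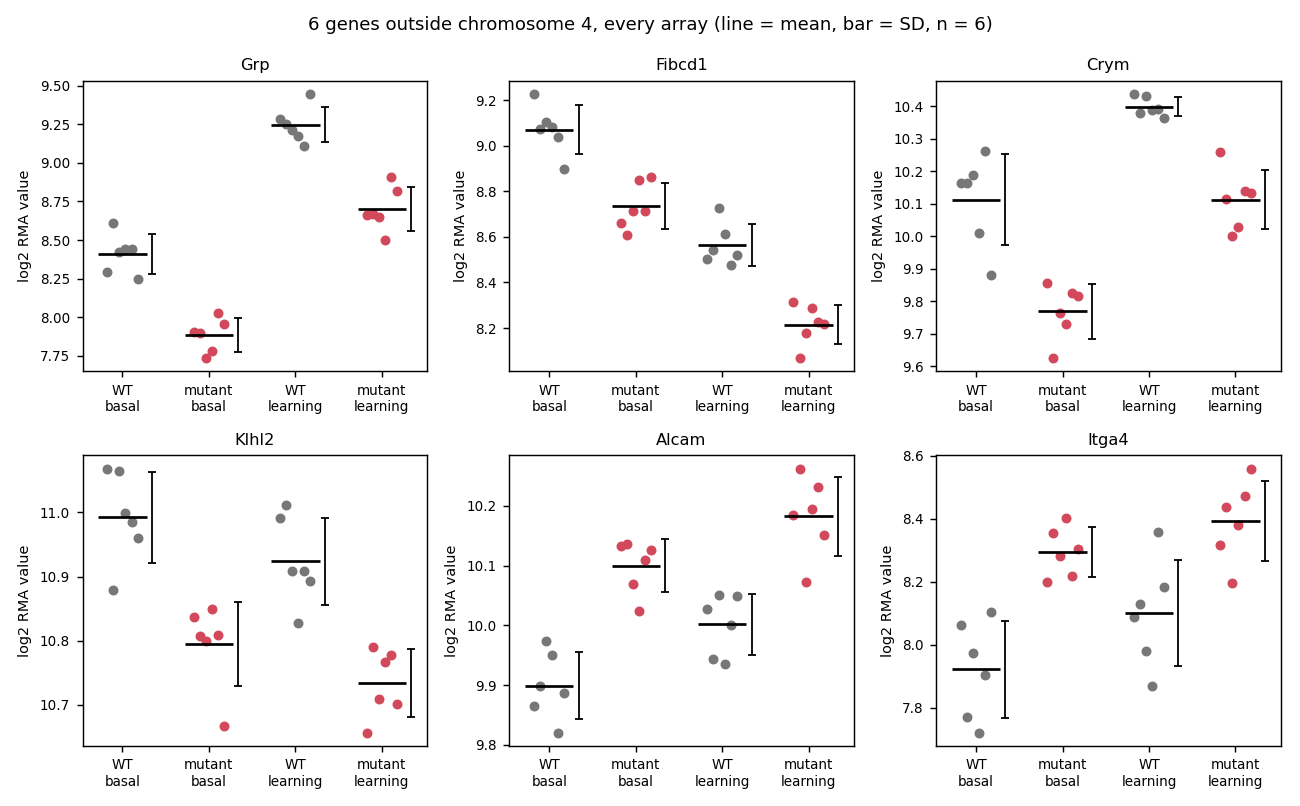
Log2 values of Grp, Fibcd1, Crym, Klhl2, Alcam and Itga4 in each of the 24 arrays, WT in grey and mutant in red, with the group mean as a line and the SD as a bar (n = 6). In the first 5 genes no mutant array crosses a WT array of the same state, and in Itga4 the arrays overlap after learning.

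The sequences before the start sites of genes with the clearest separation, and of those with a forkhead core, are shown so that the letters a forkhead factor could read are at hand. They come from RefSeq on assembly GRCm38.p6, 5′ to 3′ on the strand of the gene, 250 bases up to the start. The table holds a promoter for 34 of the 43 called genes. The motifs GTAAACA and ATAAACA, which are forms of the FoxO binding core, were searched on both strands in windows of 250 bases before to 50 after the start. ATAAACA, shown in capitals as read on the printed strand, is in 4 of the 34 genes, 2 lower (Gfra1 and Prox1) and 2 higher (Asic2 and Gpr165), against 5.28% of all 27025 genes in the table. GTAAACA is in 0 of 34, against 4.05%. The match of Asic2 begins 29 bases after the start and is not shown. A match of 7 letters is a description and not a binding site, and no match says nothing about sites elsewhere.
Fibcd1, chr2:31846006-31846255, minus strand: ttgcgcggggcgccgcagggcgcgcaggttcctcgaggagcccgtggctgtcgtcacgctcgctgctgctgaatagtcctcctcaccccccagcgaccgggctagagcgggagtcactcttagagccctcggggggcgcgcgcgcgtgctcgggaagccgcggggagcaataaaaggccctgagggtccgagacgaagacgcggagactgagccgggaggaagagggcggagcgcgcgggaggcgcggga
Klhl2, chr8:64849925-64850174, minus strand: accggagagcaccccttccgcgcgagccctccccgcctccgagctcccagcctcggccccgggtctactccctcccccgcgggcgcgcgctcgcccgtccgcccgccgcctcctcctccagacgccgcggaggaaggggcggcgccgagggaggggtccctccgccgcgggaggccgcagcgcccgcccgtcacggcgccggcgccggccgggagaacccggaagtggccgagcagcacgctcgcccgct
Alcam, chr16:52453082-52453331, minus strand: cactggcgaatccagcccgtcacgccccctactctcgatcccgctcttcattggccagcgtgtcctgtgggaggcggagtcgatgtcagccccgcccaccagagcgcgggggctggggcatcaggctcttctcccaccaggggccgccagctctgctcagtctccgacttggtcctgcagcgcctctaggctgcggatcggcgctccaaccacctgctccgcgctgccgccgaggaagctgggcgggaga
Gfra1, chr19:58455399-58455648, minus strand: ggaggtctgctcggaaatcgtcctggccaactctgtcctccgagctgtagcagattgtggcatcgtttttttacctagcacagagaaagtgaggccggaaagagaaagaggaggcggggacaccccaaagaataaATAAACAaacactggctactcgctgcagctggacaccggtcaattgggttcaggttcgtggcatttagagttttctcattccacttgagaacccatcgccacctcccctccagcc
Prox1, chr1:190169516-190169765, minus strand: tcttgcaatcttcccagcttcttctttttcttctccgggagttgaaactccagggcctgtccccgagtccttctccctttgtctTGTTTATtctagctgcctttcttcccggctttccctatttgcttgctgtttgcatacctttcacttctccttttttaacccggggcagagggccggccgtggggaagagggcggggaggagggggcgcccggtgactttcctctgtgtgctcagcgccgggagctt
Gpr165, chrX:96713218-96713467, plus strand: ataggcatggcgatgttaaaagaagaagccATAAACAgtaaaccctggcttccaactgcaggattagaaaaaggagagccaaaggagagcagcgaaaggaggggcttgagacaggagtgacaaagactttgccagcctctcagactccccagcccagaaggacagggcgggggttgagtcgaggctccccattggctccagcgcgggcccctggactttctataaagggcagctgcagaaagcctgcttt
The windows of Fibcd1, Klhl2 and Alcam have no capitals, since neither motif occurs in them, and 71.6%, 81.2% and 69.2% of their bases are G or C. In Gfra1 the share is 52.4%. Counted from the start site, the match begins at −115 in Gfra1, at −166 in Prox1, where it reads on the opposite strand, and at −220 in Gpr165.

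Rasl10a, a small GTPase of the Ras family, was lower by −0.35 (SE 0.0618, adjusted p = 0.00439), from a median of 8.79 in WT to 8.42 in the mutant at basal and from 8.54 to 8.30 after learning. Trpc6, a cation channel opened by diacylglycerol, was lower by −0.32 (adjusted p = 0.0455), and Dgkh, a kinase that removes diacylglycerol, by −0.17 (adjusted p = 0.0483). Pde7b, which breaks down cyclic AMP, was lower by −0.20 (adjusted p = 0.0125). Slc26a4, the anion exchanger pendrin, was lower by −0.29 (adjusted p = 0.00325), with no overlap at basal (5.75 to 6.04 in the mutant, 6.14 to 6.44 in WT). Gpc3, a glypican of the cell surface, was lower by −0.31 (adjusted p = 0.0182) and B3galt2, a galactosyltransferase, by −0.28 (adjusted p = 0.000967). B3galt2 had a narrow range in WT at basal, 8.84 to 8.90, above the mutant range of 8.47 to 8.78.

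Vgll3, a cofactor of TEAD transcription factors, was lower by −0.34 (adjusted p = 0.00198). Plagl1, an imprinted zinc finger factor, was lower by −0.27 (adjusted p = 0.00308) and Anln, the actin-binding protein anillin, by −0.25 (adjusted p = 0.0174). Fam13a was lower by −0.23 (adjusted p = 0.0155) and the serine protease Htra4 by −0.24 (adjusted p = 0.0174). The remaining lower genes, given after their values were seen, were the matrix protein Fbln1 (−0.19), the deacetylase Hdac10 (−0.17), the RNA-binding protein Ewsr1 (−0.16) and Cbfb (−0.15), the partner subunit of Runx factors. Their adjusted p lay between 0.0077 and 0.0367.

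Htr2a, a serotonin receptor, was higher by 0.24 (SE 0.0475, 1.19-fold, adjusted p = 0.00978), from a median of 8.25 to 8.58 at basal and from 8.81 to 9.06 after learning. Kcnv1, a modulatory potassium channel subunit, was higher by 0.23 (adjusted p = 0.00193) and Kcnq5, a channel of the muscarine-sensitive current, by 0.13 (adjusted p = 0.0467). Asic2, an acid-sensing ion channel named after its values were seen, was higher by 0.14 (adjusted p = 0.00648). The receptor gene Gpr165 was higher by 0.26 (adjusted p = 0.0369). Itgbl1, an integrin-like secreted protein, was higher by 0.24 (adjusted p = 0.0156).

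The sulfotransferases Chst8 (0.20, adjusted p = 0.00941) and Hs3st4 (0.17, adjusted p = 0.0277) were both higher. Prag1, a pseudokinase, was higher by 0.27 (adjusted p = 0.0117). Rpph1, the RNA part of ribonuclease P, had the largest mean difference of the higher genes, 0.35, with a wide SE of 0.0771 (adjusted p = 0.0278). Cpne9, a calcium-dependent lipid-binding protein, was higher by 0.23 (adjusted p = 0.0185) and Lsm11, which acts in histone RNA processing, by 0.20 (adjusted p = 0.00792). Psrc1 (0.18, adjusted p = 0.0298), which binds microtubules, and Pdlim1 (0.21, adjusted p = 0.0455), a LIM domain protein of the actin cytoskeleton, were higher as well. Il34, a ligand of the receptor on which microglia depend, was higher by 0.16 (adjusted p = 0.0243) and was named after its values were seen.

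The genes of 2 parts of 1 receptor differed in opposite directions, and bulk tissue does not show whether this was in the same cells. Ret, the receptor tyrosine kinase for ligands of the GDNF family, was higher by 0.27 (SE 0.0593, adjusted p = 0.0302), while Gfra1, the co-receptor that presents GDNF to Ret, was lower by −0.13 (SE 0.0274, adjusted p = 0.0167). At basal, Ret ranged from 6.45 to 6.85 in the mutant and from 6.12 to 6.46 in WT. After learning it ranged from 6.26 to 6.75 and from 6.12 to 6.34. Gfra1 ranged from 9.56 to 9.66 in the mutant and from 9.66 to 9.85 in WT at basal. In each case the edges of the ranges touched or overlapped. Ret lost its call with choroid plexus markers or dentate markers as a covariate (adjusted p = 0.0775 and 0.578). Gfra1 lost its call with each array shifted to a common median, and with dentate markers as a covariate (−0.08, adjusted p = 0.746). Igfbp4, which binds insulin-like growth factors outside the cell, was higher by 0.15 (adjusted p = 0.0355). Of 49 measured genes of growth factor receptors and the insulin-like growth factor system, these 3 were called, 2 higher and 1 lower, where 0.101% of all genes outside chromosome 4 were called higher and 0.128% lower. The list was chosen with earlier results of these data known, so its share is a description.

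**Figure D3:**
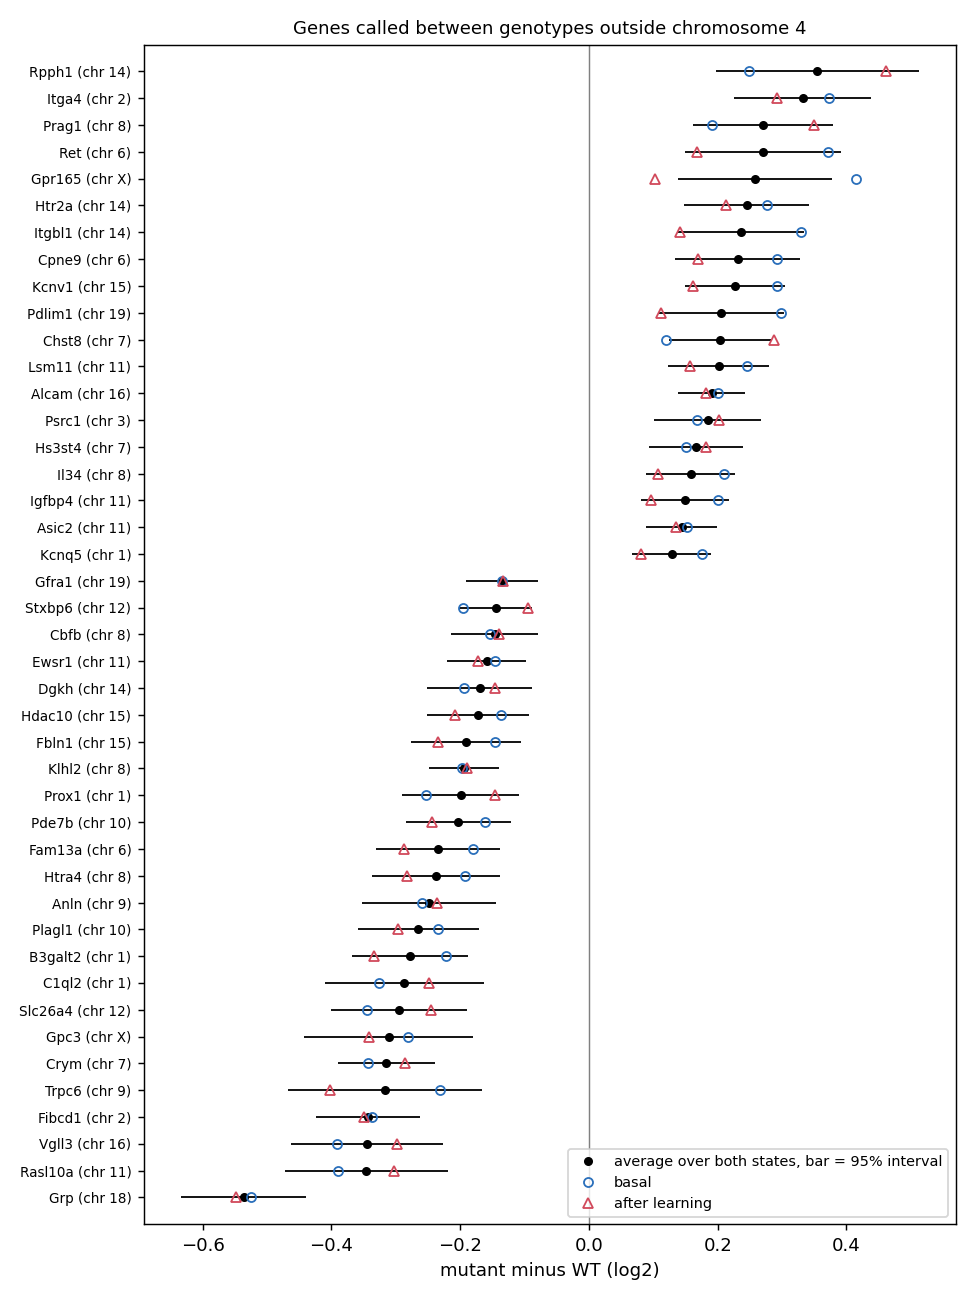
Difference, mutant minus WT on the log2 scale, of the 43 genes called outside chromosome 4, as the average over both states (black, with its 95% interval), at basal (blue circles) and after learning (red triangles). Both states lie on the same side of 0 for all 43 genes. The genes were called on the average of the basal and learning differences. That choice itself favours agreement in sign, so the agreement is a description and not a test.

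The basal and the learning comparison share no array, but both come from 1 fit and share its estimate of the spread. A gene with a small spread can therefore have a small p in both states, so overlaps in p are not independent. In this fit the basal state gave 11 called genes outside chromosome 4 (0.0586%, with 4.18% at an unadjusted p under 0.05) and the learning state 8 (0.0426%, with 6.99%). With only the arrays of 1 state in the fit, 6 genes were called at basal and 3 after learning. All 11 basal genes had the same sign after learning, and 10 of them had an unadjusted p under 0.05 there. Those 11 were Grp, Vgll3, Crym, Fibcd1, Klhl2, Stxbp6, Alcam, Kcnv1, Itgbl1, Itga4 and Gpr165. The exception at the unadjusted p was Gpr165, at 0.41 at basal and 0.10 after learning. Of the 8 genes called after learning, 7 had the same sign and an unadjusted p under 0.05 at basal: Grp, Fibcd1, Crym, B3galt2, Klhl2, Alcam and Chst8. Chst8 differed by 0.12 at basal and by 0.29 after learning. The single-state counts rested on individual arrays: the basal count was 3 to 7 without WT basal array 2, 3, 4 or 5 or mutant basal array 1, 2, 3 or 6, and the learning count 3 to 5 when mutant learning array 1 or 3, or array 1, 2 or 5 of WT learning, was dropped. Among the 100 genes outside chromosome 4 with the smallest p at basal, 84 had the same sign after learning, and 35 did so with an unadjusted p under 0.05, where 58.2% and 5.03% of all genes outside chromosome 4 did. Across the genes outside chromosome 4, Pearson's r between the basal and the learning difference was 0.274 and Spearman's rank correlation 0.244, given as a description since genes are not independent.

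The remaining gene called after learning was Hmgb2, a chromatin protein assigned to chromosome 8, at −0.37 after learning (adjusted p = 0.0245) and 0.02 at basal. The identifier of its probe lies among those of chromosome 4 genes, for 17 of 20 neighbours. Of its 4 probes, the 1 whose neighbours are on chromosome 8 gave −0.32 after learning. With probes limited to those whose neighbours lie on the gene's own chromosome, a choice made after seeing the data, Hmgb2 is not among the 7 genes called after learning.

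Whether the genotype difference depended on the state was tested by the interaction. By limma, 0 genes outside chromosome 4 were called, with 477 at an unadjusted p under 0.05 (2.54%). Of the 43 called genes, 2 were among these: Gpr165, whose difference shrank by −0.31 from basal to learning (95% interval −0.55 to −0.07), and Chst8, whose difference grew by 0.17 (0.01 to 0.33). For Grp the change between states was −0.02 (95% interval −0.22 to 0.17), for Fibcd1 −0.01 (−0.17 to 0.15) and for Alcam −0.02 (−0.12 to 0.09).

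Several of the members also moved with the task, in comparisons that use the same arrays. Htr2a rose by 0.56 in WT and by 0.50 in the mutant after the task, and Kcnv1 by 0.44 and 0.31. Prox1 fell by 0.41 and 0.31. Igfbp4 fell by 0.25 and 0.36. Gfra1 and Klhl2 were not called between states in either genotype, at −0.06 and −0.06 for Gfra1 and −0.07 and −0.06 for Klhl2.

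Markers of dentate gyrus granule cells mostly had lower levels in the mutant. Of 13 measured outside chromosome 4, 3 were called lower and 0 higher, against 0.128% of genes outside chromosome 4 called lower, and 11 had a difference below 0 where 45.1% of those genes had. This list and those below were chosen with earlier results of these data known, so their shares are descriptions and not tests. The median of the markers was −0.11 (−0.13 at basal, −0.11 after learning). C1ql2, a secreted protein of granule cell synapses, was at −0.29 (SE 0.0606, adjusted p = 0.0227), Prox1, the homeobox factor that defines granule cells, at −0.20 (SE 0.0446, adjusted p = 0.0355), and Stxbp6, a SNARE-binding protein, at −0.14 (SE 0.028, adjusted p = 0.00968). Prox1 ranged from 8.78 to 9.04 in the mutant and from 8.96 to 9.40 in WT at basal, and from 8.49 to 8.64 and 8.53 to 8.88 after learning. The uncalled Tdo2 (−0.21), Dsp (−0.21) and Lct (−0.12) were also below 0, and Plk5 (0.06) and Pdzd2 (0.11) above. In bulk tissue, fewer cells of a type in the piece taken, for whatever reason, and less RNA per cell cannot be told apart.

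The mean of the dentate markers overlapped between genotypes. It ranged from 7.89 to 8.05 in the mutant and from 8.01 to 8.24 in WT at basal, and from 7.85 to 7.97 and from 7.87 to 8.08 after learning. With this mean as a covariate, 11 genes outside chromosome 4 were called, 7 of them among the 43: Grp, Crym, Fibcd1, Alcam, Itga4, Cpne9 and Il34. All 43 kept their sign and 42 an unadjusted p under 0.05, the median difference was 0.949 of its size without the covariate, and the median SE grew 1.28-fold. The 43 were called in these same arrays, so this is not an independent check. C1ql2, Prox1 and Stxbp6 are themselves part of the mean. With the covariate the difference was −0.04 for Prox1, −0.23 for C1ql2, −0.08 for Gfra1, −0.23 for Rasl10a, −0.09 for Stxbp6 and 0.45 for Itga4.

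Markers of the other hippocampal fields are given beside these, with the same background of 0.128% of genes called lower. Of 12 CA1 markers, Fibcd1 and Gpc3 were called lower, and the other 10 were not called, with Wfs1, the marker of dorsal CA1, at 0.15 and a list median of 0.03. Of 15 markers of CA2 and CA3, 0 were called in either direction (median 0.05). Along the long axis of the hippocampus, 2 of 8 genes of the ventral end were called lower, Grp and Gpc3, while Trhr (0.28) and Nr2f2 (0.14) of the same list were above 0 and not called. Of 6 genes of the dorsal end, 0 were called (median 0.10).

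Interneuron markers lay mostly above 0 in the mutant. Of 22, 20 had a difference above 0, where 54.9% of genes outside chromosome 4 had, and 10 had an unadjusted p under 0.05, but 0 were called. The median was 0.08, with Calb2 at 0.20 (adjusted p = 0.143), Npy at 0.19 (adjusted p = 0.362), Gad2, a GABA-synthesising enzyme, at 0.07 and Gad1, the other one, at −0.02. Their mean ranged from 8.44 to 8.58 in the mutant and from 8.36 to 8.49 in WT at basal, and from 8.49 to 8.54 and from 8.35 to 8.51 after learning.

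Levels of choroid plexus markers varied widely within WT basal. This epithelium lies beside the hippocampus. Of its 18 markers, 17 were above 0 and 0 were called (median 0.16). Without WT basal arrays 4, 5 and 6 the median was 0.03. The marker mean ranged from 6.31 to 6.74 in mutant basal and from 5.86 to 6.71 in WT basal, and from 5.97 to 6.73 and from 5.99 to 6.19 after learning. Ttr, the carrier of thyroid hormone and a defining marker of this epithelium, differed by 0.76 over both states without being called (adjusted p = 0.489). It was at 8.80, 9.64 and 9.17 in WT basal arrays 4, 5 and 6 and at 11.65, 12.11 and 11.81 in arrays 1, 2 and 3. No label sets these arrays apart. With the choroid plexus mean as a covariate, 28 genes were called outside chromosome 4, 25 of them among the 43. Without WT basal arrays 4, 5 and 6 the count was 27, of which 22 were among the 43. Grp, Fibcd1, Crym, Alcam, Klhl2, Itga4, Kcnv1 and Htr2a were called under both, at −0.55, −0.38, −0.34, 0.18, −0.20, 0.33, 0.25 and 0.31 without those arrays.

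**Figure D4:**
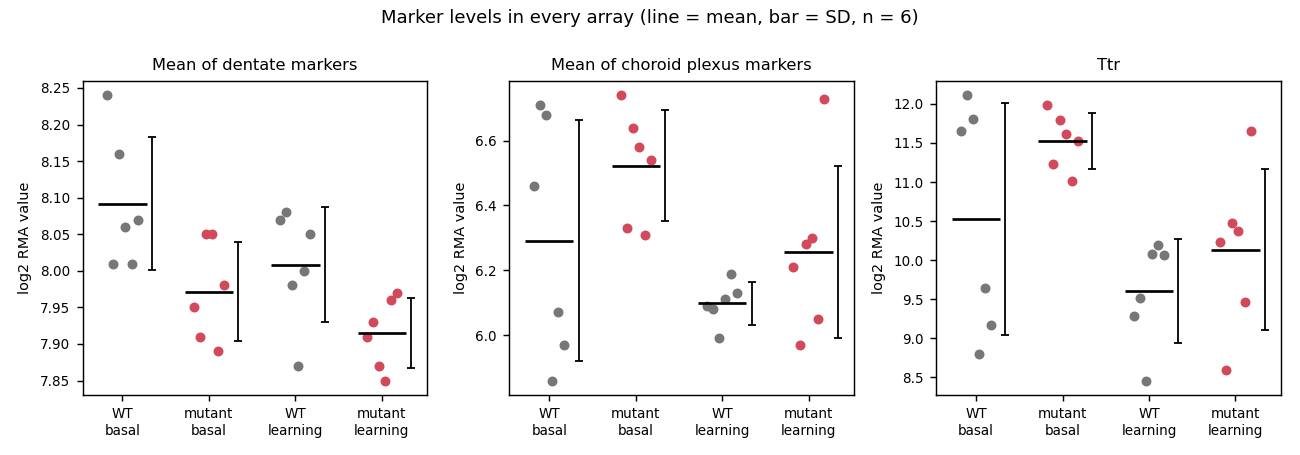
Mean log2 level of the dentate markers, mean level of the choroid plexus markers and level of Ttr in each of the 24 arrays, WT in grey and mutant in red, with the group mean as a line and the SD as a bar (n = 6). Dentate means are lower in mutant groups with some overlap, and in Ttr 3 WT basal arrays lie below 10 and 3 above 11.

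Other cell types gave no called gene outside chromosome 4. Of 14 oligodendrocyte, 15 astrocyte, 15 microglia, 17 endothelial and mural, 10 oligodendrocyte precursor, 12 thalamic and 15 neocortical markers, 0 were called. Medians ran from −0.0008 for oligodendrocytes to 0.05 for microglia. Microglia markers were above 0 in 14 of 15 and neocortical markers in 14 of 15, where 54.9% of genes outside chromosome 4 were. The microglia median was 0.081 at basal and −0.0032 after learning, and the neocortical median 0.0756 and 0.0235. Blood had 3 measured markers, also with 0 called.

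Gene groups that FoxO6 might be thought to touch held no called gene outside chromosome 4. Of 39 genes known as targets of FoxO factors, including other FoxO genes, 0 were called, with 23 below 0 and a median of −0.02. The member with the largest difference was Txnip, an inhibitor of thioredoxin, at −0.24 (adjusted p = 0.106), followed by the stress protein gene Sesn1 at −0.14 (adjusted p = 0.172). Of 21 MEF2 factors and target genes, 0 were called (median 0.0066). Of 34 genes induced by neuronal activity, 0 were called (median −0.0075), with Fos at 0.01, Arc at 0.04 and Npas4 at 0.07. Of 17 genes of cell division and new neurons, 0 were called.

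Genes of neuronal signalling gave a few called members. Over all genes outside chromosome 4, 0.101% were called higher and 0.128% lower. Of 71 integrins and adhesion molecules, 3 were called higher and 0 lower: Itga4, Itgbl1 and Alcam (median of the list 0.01). Of 56 potassium channel genes, Kcnv1 and Kcnq5 were called higher, and 38 were above 0 (median 0.03). Of 26 neuropeptide genes, Grp was called lower, while 19 were above 0, among them Sst (0.14) and Vip (0.18), which were not called. Of 52 receptors for neuropeptides and monoamines, Htr2a was called, and the orexin receptor Hcrtr2 stood at 0.30 (adjusted p = 0.0656). Of 37 sodium, calcium and transient receptor potential channels, Trpc6 was called lower. Stxbp6 was the called member of 33 presynaptic genes. Of 42 glutamate receptors and scaffolds, 13 receptors for GABA and glycine, 52 guidance genes and 67 genes of oxidative phosphorylation, 0 were called, with medians of 0.02, 0.0023, 0.03 and 0.03. Of the 43 genes, 16 belonged to any of these lists and 27 to none.

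**Figure D5:**
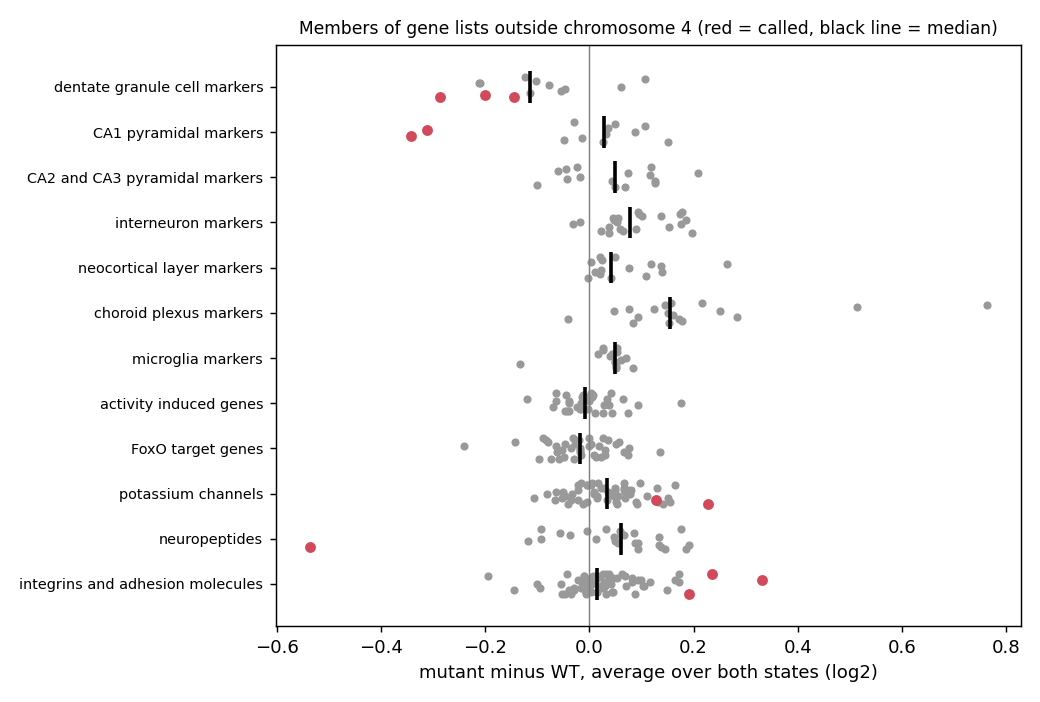
Difference, mutant minus WT averaged over both states on the log2 scale, of each member of 12 gene lists outside chromosome 4, with called genes in red and the list median as a black line. The dentate markers lie mostly below 0 (11 of 13) and the interneuron markers mostly above (20 of 22).

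Calls differed in how firmly they held. Of the 43 genes, 27 stayed called in each of 24 fits that dropped 1 array. Among the others, C1ql2 lost its call only without WT learning array 1 (adjusted p = 0.0518), and Il34 without mutant basal array 3 or WT basal array 5 (up to 0.057). Hs3st4 was called in 17 of 24 such runs, Fbln1 and Rpph1 in 16, Psrc1 in 15, Ret in 14, Cbfb and Hdac10 in 11, Prox1 and Igfbp4 in 10, Gpr165 in 9, Pdlim1 in 7, Trpc6 in 6, and Dgkh and Kcnq5 in 5 (adjusted p up to 0.106). Grp, Fibcd1, Crym, Alcam and Itga4 were called in every one of these runs and in each of the other 10 fits, which changed the model, scaling, filter, probe or covariate. Anln, Chst8, Fam13a, Gpc3, Htra4, Pde7b and Prag1 were called in all 24 runs as well. They lost their call with the choroid plexus mean as a covariate (adjusted p = 0.0608 to 0.132) and without WT basal arrays 4, 5 and 6 (0.0603 to 0.201).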

How the data were processed

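Hippocampal RNA of 24 samples was measured on Affymetrix whole-transcript arrays. The deposited table is on a log2 scale and came from RMA, per the submitters' processing notes, a method of background correction, quantile normalization and probe summarising. Neither the RMA version nor the array library file is given in the sources used. Values ran from 2.43 to 14.80, with medians of 6.16 to 6.30, and were not transformed further. Signal over background and scan batches were not used here.

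Of 35511 probes, 21789 carry 1 gene symbol in the platform annotation of 2016. The probe with the highest mean stood for a gene, which gave 19938 genes, with no filter on dim genes. Chromosomes came from RefSeq (GRCm38.p6) by Entrez identifier for 19855 genes and by symbol for 64.

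In R 4.3.3, limma 3.58.1 fitted 1 mean per group over all 24 arrays (20 residual degrees of freedom), with eBayes and a mean-variance trend. The genotype difference is the average of those of the 2 states. P-values are two-sided, with Benjamini-Hochberg adjustment across the full set of 19938 genes, chromosome 4 included. Alternatives covered the model, array weights, scaling, the trend, a filter on dim genes, the probe of a gene, a replicate block, marker covariates and leaving out each array.

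Named genes are the 15 called genes with the largest difference in each direction, up to 3 called members of each list per direction, Foxo1, Foxo3 and Foxo4, any gene called in the interaction, and Foxo6 for comparison. Uncalled genes given with a value, Hmgb2, and called genes beyond these were chosen after their values were seen. Clone names, olfactory receptors and pseudogenes are skipped as names. Members and the 30 lists were chosen with earlier results of these data known. The fit was checked on simulated data.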

Additional observations from a re-analysis of the deposited data

Results flagged for a closer look

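In 11 of 172 groups of 6 arrays (43 called genes in 4 groups), 1 array lay far from the rest by Dixon's criterion at 95%, which chance gives in about 1 of 20 groups. At basal these were, in WT, Anln in array 2 (7.95, the next 8.10), Kcnv1 in array 6 (9.25, the next 9.07) and Trpc6 in array 1 (8.26, the next 8.75). In the mutant at basal they were Klhl2 in array 6 (10.67, the next 10.80), Stxbp6 in array 2 (9.32, the next 9.41) and Trpc6 in array 6 (8.08, the next 8.51). After learning they were Cbfb in WT array 5 (9.10, the next 8.98), Slc26a4 in WT array 2 (6.44, the next 6.26), Fam13a in mutant array 3 (7.25, the next 7.53), Plagl1 in mutant array 2 (7.55, the next 7.33) and Vgll3 in mutant array 6 (6.40, the next 5.99).

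Among 13722 probes that carry no gene symbol or several, 27 were called between genotypes over both states by limma, adjusted over all 35511 probes. Of these, 20 carry no symbol and 7 several. Of the 7, 6 are annotated to both Rpl11 and Brf2 and were higher in the mutant, by 0.39 to 0.54. These 6 share their annotation and cannot be counted as separate genes. The other is annotated to Ndufs5 and its pseudogene (−0.24, adjusted p = 0.0422). Ndufs5 itself lies on chromosome 4, where its own probe gave −0.98. The 27 probes were not sorted by chromosome, so they are not a count of changes outside chromosome 4.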

How the results depend on the processing

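The called direction of each of the 43 genes was kept in every setting run, and 5 of them were called in each of 10 other fits and each fit without 1 array. The count of 43 outside chromosome 4 was 43 with state as a covariate, of which 40 were shared, 26 after centring arrays on their medians, 28 with the choroid plexus mean and 11 with the dentate mean as a covariate, and 27 without WT basal arrays 4, 5 and 6, added after seeing the data. Leaving out 1 array gave 31 to 57. At basal, 11 genes became 6 with the basal arrays alone, 32 with array weights, 5 after centring, 3 without the trend, 2 with the dentate mean, 7 without the 3 WT arrays and 3 to 16 without 1 array. After learning, 8 became 3 with the learning arrays alone, 4 with array weights, after centring, without the trend or with the replicate block, 3 with the dentate mean and 3 to 10 without 1 array. A second quantile normalization called 12 after learning, 6 higher and 6 lower, against 2 higher and 6 lower. The interaction stayed at 0 in each setting it was run in, leave-one-out included (0 to 0). The cause of these changes was not tested. With the replicate block 34 genes were called over both states, 33 shared. The main fit did not pair arrays by replicate number. Of 36 same-numbered pairs, 7 correlated above 0.1 (median −0.012, from −0.292 to 0.447), which cannot settle whether the numbers pair arrays. The astrocyte median changed sign from 0.0002 to −0.0055 after the second quantile normalization, and that of oligodendrocytes from −0.0008 to 0.0024 after centring and 0.0001 after the second quantile normalization. The number of arrays limits the precision.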
